A study of Mus musculus with 24 samples.

Results

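The genes described here are 48 genes of the cell cycle and of DNA replication. They were listed by name, but with earlier results of these data known, so the list is not independent of the values. The 48 comprise 18 genes used mainly in S phase, 28 used mainly in G2 and mitosis and 2 G1 cyclins. Of the 48, 47 were measured by a probe set that the platform annotation gives to that gene alone. No such probe set was found for Ccnb1, a mitotic cyclin. The whole table holds 18194 genes, of which 13850 were bright enough to test, and each gene is read from its brightest probe set. All 47 measured genes passed that filter, 46 of them on all 24 arrays. Ccnb3 passed on only 3 arrays.

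The arrays come from the jaws of mouse embryos at day 13.5 of development, on a background that the labels call C57B6. Mutant embryos carried Wnt1-Cre and a floxed Tgfbr2 allele, which removes the type II TGF-beta receptor in the cells where Wnt1 drives Cre, the neural crest. A cleft palate and a defect of the skull vault identified them, and control embryos were littermates whose Cre status is not given. Each genotype was sampled at the distal and at the proximal end of both mandible and maxilla, with 3 arrays in each of the 8 groups. The pieces are whole tissue, so cells outside the neural crest (epithelium, vessels, muscle, blood) were measured too and kept their receptor. The labels do not say whether replicates are separate animals or pools, so the p-values reflect only how far these samples spread, and part of that spread may be technical.

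A dividing cell copies its DNA in S phase and parts the copies in mitosis. Before S phase, MCM helicase rings are loaded onto origins with the help of Cdc6 and Cdt1, and polymerases with their clamp Pcna then copy the DNA from nucleotides made by enzymes such as Rrm1 and Tk1. In G2 and mitosis, cyclin B with Cdk1, the Aurora kinases, the kinetochore and the spindle motors line up and separate the chromosomes. Genes of the S phase group are classic targets of E2F factors, while genes of the mitotic group share promoter elements called the CHR, which is read by the DREAM and B-Myb complexes, and the CCAAT box, which is bound by NF-Y. The jaw mesenchyme at this stage is made mostly by proliferating neural crest cells.

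Promoter sequences of 4 genes are shown because they pair, within each phase, a gene that was lower in mutants with one that was not called between genotypes, although both promoters hold the element of that phase. Cdca8, a subunit of the chromosomal passenger complex, was lower in mutants. Cenpf, a large kinetochore protein, was not called between genotypes and had the largest rise at the distal end of the jaws. Prim1, the catalytic primase subunit, was lower in mutants, while Mcm5, a subunit of the MCM helicase, was not called. Sequences are from RefSeq (GRCm38.p6), read 5′ to 3′ on the strand of the gene, from 180 bases before the annotated start to the first 25 transcribed bases (205 bases each). Capitals mark 3 kinds of element on either strand. The CHR was searched as TTTGAA and, in a second form, as TTCGAA. The CCAAT box was searched by those 5 letters. The E2F site was searched in the form TTCGCGC, then in the form TTGGCGC, and last in the form TTCCCGC. The Cdca8 stretch is chr4:124936893-124937097 (minus strand), that of Cenpf chr1:189688062-189688266 (minus strand), that of Prim1 chr10:128015035-128015239 (plus strand) and that of Mcm5 chr8:75109329-75109533 (plus strand).
Cdca8: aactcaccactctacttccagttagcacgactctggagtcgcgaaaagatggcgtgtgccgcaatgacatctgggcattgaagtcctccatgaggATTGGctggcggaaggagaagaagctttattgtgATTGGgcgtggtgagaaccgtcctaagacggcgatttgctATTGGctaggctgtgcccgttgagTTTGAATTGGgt
Cenpf: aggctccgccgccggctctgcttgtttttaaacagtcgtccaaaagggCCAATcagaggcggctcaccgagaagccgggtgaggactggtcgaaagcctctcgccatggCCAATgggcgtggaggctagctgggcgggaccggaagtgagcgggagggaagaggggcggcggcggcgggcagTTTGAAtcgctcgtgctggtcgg
Prim1: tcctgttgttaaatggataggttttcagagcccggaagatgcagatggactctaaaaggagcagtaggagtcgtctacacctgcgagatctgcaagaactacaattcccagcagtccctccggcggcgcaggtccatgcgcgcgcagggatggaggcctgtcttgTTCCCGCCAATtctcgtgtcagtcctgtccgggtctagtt
Mcm5: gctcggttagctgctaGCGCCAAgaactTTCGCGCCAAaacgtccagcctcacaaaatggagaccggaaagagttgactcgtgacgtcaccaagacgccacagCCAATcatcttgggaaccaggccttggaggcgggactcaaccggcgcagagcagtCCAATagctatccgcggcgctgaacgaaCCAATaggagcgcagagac
The CHR letters of Cdca8 lie at bases 14 to 19 from the start, and those of Cenpf at bases 3 to 8. In Cdca8 the last CCAAT match overlaps the CHR letters, and in Prim1 the E2F letters and the CCAAT box share bases.

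Promoters were found in the RefSeq table for 39 of the 48 genes, 15 of the S phase and 24 of the G2/M group, and were searched over 300 bases (250 before and 50 from the start). A CHR match was present in 18 of 24 G2/M promoters (75.0%) and 2 of 15 S phase promoters (13.3%), against 19.4% of all 27018 promoters. An E2F match was present in 4 of 24 G2/M promoters (16.7%) and 8 of 15 S phase promoters (53.3%), against 8.21% of all. The CCAAT box was present in 19 of 24 G2/M promoters (79.2%) and 9 of 15 S phase promoters (60.0%), against 37.9% of all. Within the G2/M group a CHR match was found in 12 of the 15 promoters of genes lower in mutants and in 6 of the 8 promoters of the other measured genes. A match is a run of letters and not a shown binding site.

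Most of these genes were abundant. Their levels, as log2 array values, had a median of 11.67 over the 47 genes, against 9.59 over all genes tested. The brightest was Ccnd2, a G1 cyclin, at 13.67, and the dimmest Ccnb3, a cyclin best known from germ cells, at 5.53. Tyms, thymidylate synthase, was dim for a replication gene, at 6.96. These levels describe the probe sets and do not rank the genes' transcripts, because a probe set's brightness also depends on its sequence.

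Some properties of the libraries bear on what follows. Arrays of 1 genotype with the same replicate number, 1 from each region, are here called a set. In the Gapdh control probe sets, the excess of 3′ over 5′ signal, which grows as RNA is degraded, was 0.249 to 0.773 in mutant sets 1 and 3, 0.0355 to 0.0972 in mutant set 2 and -0.0740 to 0.158 in the control sets. Set 1 of each genotype had little Xist (means of 6.50 in mutant and 6.31 in control), against 13.19 to 13.68 in the other sets. Y-linked signal was nevertheless 8.81 and 9.20 in mutant sets 2 and 3, against 3.82 and 3.88 in control sets 2 and 3. Mutant sets 2 and 3 thus held signal of both sexes, and sex-linked signal differed between the genotypes there. The part of sex in the genotype differences below was not tested. The labels of the jaws fit their markers: Hand2, Dlx5, Dlx6 and Hand1, genes of mandibular identity, averaged 9.99 to 10.33 on mandible arrays and 8.63 to 9.68 on maxilla arrays. The probe sets of Tgfbr2 itself check nothing about the deletion unless they lie in the floxed part, which the files do not say. Its brightest one read 12.20 to 12.68 in mutant arrays, against 11.94 to 12.33 in control arrays. Averaged over the 4 regions it was called higher in mutants, with a log2 difference of 0.31 ± 0.0543 (adjusted p 0.000296 by limma, 0.022 with the set as a random block, 0.0903 with 1 value per set).

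The first question is whether the loss of Tgfbr2 in the neural crest went with a change of these genes over the whole jaw. Averaged over the 4 regions, 27 of 47 genes fell in mutants, 2 rose and 18 did not pass the test (limma, adjusted p under 0.05 over all 13850 genes). Over all genes tested 15.5% were called lower and 18.3% higher. The median log2 difference, mutant minus control, was -0.17 over the 47 genes and 0.02 over all genes, and 42 of the 47 were below 0. The differences were small, at most 20.7% (Ndc80) for a gene that fell. In a whole piece of tissue, fewer dividing cells and less RNA of these genes per cell cannot be told apart.

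The count depends on what is taken as the replicate. Arrays of a set deviated together (correlation 0.40). With the set as a random block, 19 of 47 genes were lower and 1 higher, against 6.07% and 5.57% of all genes. With 1 value per set, limma called 0 of 47, against 0.578% of all genes. In that fit 23 of 47 had an unadjusted p under 0.05 (21 lower and 2 higher), against 21.9% of all genes. The smallest adjusted p among the 47 was then 0.0604. In 25 of 47 genes the means of all 3 mutant sets lay below those of all 3 control sets, as they did in 13.7% of all genes.

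**Figure D1:**
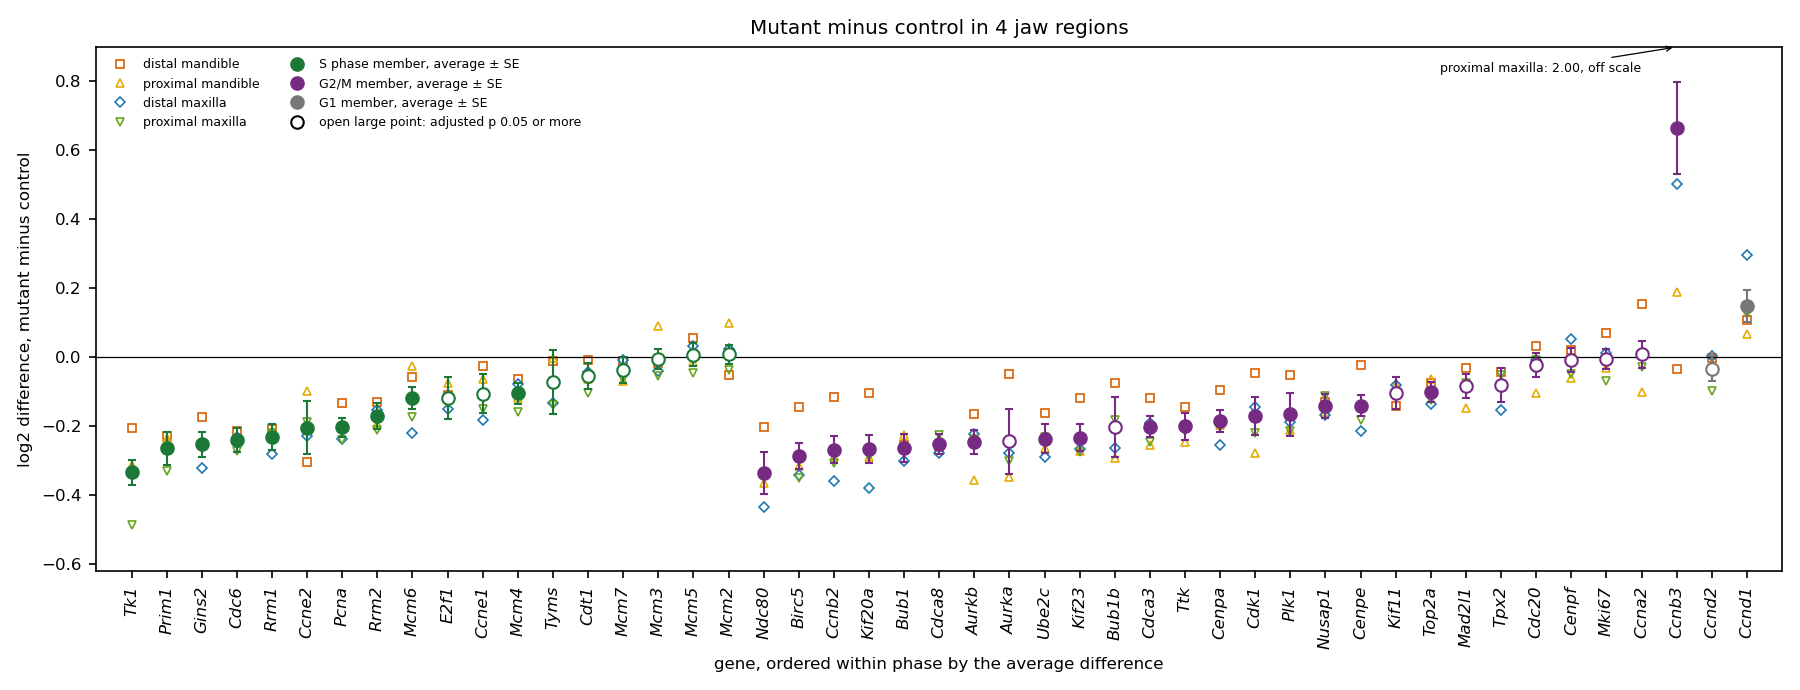
Log2 difference, mutant minus control, of each gene (horizontal axis, grouped by phase) in the 4 regions (small open symbols) and averaged over them (large points with SE; filled where the adjusted p was under 0.05). Most S phase and G2/M points lie between 0 and -0.33, Mki67, Cenpf, Ccna2 and several MCM genes lie at 0, and the Ccnb3 value of 2.00 in the proximal maxilla is beyond the scale.

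Among the S phase genes, 10 of 18 fell and none rose, with a median log2 difference of -0.12. With the set as a random block 7 of the 18 were lower. The largest fall was that of Tk1, thymidine kinase, which salvages thymidine for DNA synthesis. Tk1 had log2 values of 10.48 to 10.99 (median 10.82) on the 12 mutant arrays, against 11.02 to 11.26 (median 11.12) on the 12 control arrays. Every mutant array lay below every control array, whatever its region. Its log2 difference was -0.33 ± 0.0359 (SE; adjusted p 3.66e-06 by limma, 0.0013 with the set as a random block), a level 20.6% lower.

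Pcna, the sliding clamp of DNA polymerase, was the only other gene of the 47 without any overlap over all regions. It had log2 values of 13.42 to 13.68 (median 13.58) on mutant arrays, against 13.70 to 13.82 (median 13.76) on control arrays. Its log2 difference was -0.20 ± 0.0270 (adjusted p 2.33e-05 by limma).

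The other S phase genes that fell cover several steps of replication. Prim1, the primase subunit whose promoter is shown above, differed by -0.26 ± 0.0468. Gins2, a subunit of the GINS part of the replicative helicase, had log2 values of 10.61 to 10.87 on mutant arrays against 10.83 to 11.16 on control arrays, and differed by -0.25 ± 0.0365. Cdc6, a loader of the helicase, and Rrm1, the large subunit of ribonucleotide reductase, differed by -0.24 ± 0.0355 and -0.23 ± 0.0378. Smaller falls that passed were those of Rrm2, the partner of Rrm1 (-0.17), and of the helicase subunits Mcm6 (-0.12) and Mcm4 (-0.10). Ccne2, an E-type cyclin that drives entry into S phase, passed narrowly at -0.20 ± 0.0771 (adjusted p 0.0484 by limma, 0.27 with the set as a random block).

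Which subunits of the helicase passed depends on the probe set that is read. Of its 6 subunits in the list, Mcm4 and Mcm6 passed and the other 4 did not, with log2 differences of -0.04 for Mcm7, -0.01 for Mcm3, 0.01 for Mcm2 and 0.01 for Mcm5. Other probe sets of Mcm4 and Mcm6 that were bright enough went the other way, at 0.14 and 0.16, so neither direction is secure. Other bright probe sets of the 4 that did not pass lay further below 0 or at it, at -0.16 for Mcm2, at -0.79, -0.26, -0.22 and -0.00 for Mcm3, at -0.15 and -0.03 for Mcm5, and at -0.27, -0.11 and -0.01 for Mcm7. E2f1, the factor that drives many of these genes, differed by -0.12 and did not pass. The remaining S phase genes that did not pass were Ccne1 (-0.11), Tyms (-0.07) and Cdt1 (-0.05).

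In the G2/M group 17 of 27 genes fell and 1 rose, with a median log2 difference of -0.19. With the set as a random block 12 of the 27 were lower and 1 higher. All 4 members of the chromosomal passenger and Aurora B machinery in the list fell: Birc5 (survivin), Aurkb (the Aurora B kinase), Cdca8 (borealin) and the linked motor Kif20a, which carries the complex to the spindle midzone. Cdca8 had log2 values of 11.79 to 12.06 (median 11.93) on mutant arrays, against 12.02 to 12.30 (median 12.22) on control arrays. The ranges touch only between regions, and within each of the 4 regions all 3 mutant arrays lay below all 3 control arrays. Its log2 difference was -0.25 ± 0.0291 (adjusted p 6.66e-06 by limma), a level 16.1% lower. Its other bright probe sets stood at -0.43 and -0.08, so the size depends on the probe set that is read.

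Birc5 had log2 values of 11.51 to 12.09 (median 11.84) on mutant arrays, against 11.99 to 12.28 (median 12.09) on control arrays. Aurkb had log2 values of 10.03 to 10.37 (median 10.20) on mutant arrays, against 10.16 to 10.56 (median 10.48) on control arrays. Both overlap when regions are pooled, and both are without overlap within each region. Their log2 differences were -0.29 ± 0.0380 and -0.25 ± 0.0341.

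Of the kinetochore and checkpoint genes, Ndc80, which binds microtubules at the kinetochore, showed the largest fall of the group at -0.33 ± 0.0614 (adjusted p 0.000444 by limma). Its values were 9.08 to 9.67 (median 9.30) on mutant arrays, against 9.43 to 9.89 (median 9.65) on control arrays. The ranges overlap. The checkpoint kinases Bub1 and Ttk fell by 0.26 and 0.20, and Cenpa, the centromeric histone, fell by 0.19. Another bright probe set of Bub1 went up by 0.13. Cenpe, a kinetochore motor, fell by 0.14, whereas Cenpf (-0.01 ± 0.0350) and the checkpoint protein Mad2l1 (-0.08) did not pass.

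Among the drivers and the exit machinery, Ccnb2, a B-type cyclin, fell by 0.27 ± 0.0388. Its log2 values were 11.26 to 11.75 (median 11.48) on mutant arrays, against 11.66 to 11.90 (median 11.80) on control arrays, with a small overlap. Ube2c, the ubiquitin-conjugating enzyme of the anaphase-promoting complex, fell by 0.24, and Cdca3, a trigger of mitotic entry, by 0.20. Kif23, a motor of cytokinesis, fell by 0.23 and Nusap1, a spindle protein, by 0.14. Cdk1, the mitotic kinase, fell by 0.17 (adjusted p 0.022 by limma, 0.087 with the set as a random block), Plk1, a mitotic kinase, by 0.17 (adjusted p 0.0471) and Top2a, topoisomerase II, by 0.10. Mki67, the proliferation antigen, did not differ by more than the spread between arrays (-0.00 ± 0.0286), with 12.49 to 12.91 on mutant arrays against 12.52 to 12.85 on control arrays. Ccna2, the cyclin of S phase and G2, stood at 0.01 ± 0.0397 and Cdc20, an activator of the anaphase-promoting complex, at -0.02. Other bright probe sets stood at -0.29 for Ccna2, with -0.29, -0.20 and -0.38 in mutant sets 1, 2 and 3, and at -0.23 and -0.05 for Cdc20. The spindle genes Kif11 (-0.10) and Tpx2 (-0.08) did not pass either.

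Without overlap in any of the 4 regions, mutant arrays lay below control arrays for 12 of 47 genes, 6 of each phase, against 2.95% of all genes. The 6 S phase genes were Pcna, Cdc6, Rrm1, Tk1, Gins2 and Prim1. The 6 G2/M genes were Birc5, Aurkb, Bub1, Ube2c, Cdca3 and Cdca8. No gene of the list lay above in all 4 regions (2.32% of all genes did).

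The G1 cyclins and Ccnb3 complete the list. Ccnd1, cyclin D1, which couples growth signals to the cell cycle, was higher in mutants by 0.15 ± 0.0461 (adjusted p 0.0174 by limma, 0.25 with the set as a random block). Its log2 values were 12.57 to 13.12 (median 12.81) on mutant arrays, against 12.35 to 12.95 (median 12.66) on control arrays, and they overlap. Another of its bright probe sets stood at -0.09. Ccnd2, cyclin D2, differed by -0.03 and did not pass. Its other bright probe sets stood at 0.40, 0.23, 0.12, 0.06, -0.09 and -0.16, so its direction depends on the probe set that is read.

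Ccnb3, the gene that rose in the G2/M group, had the widest range of values. In the proximal maxilla its log2 values were 6.34, 7.72 and 7.88 on mutant arrays, against 5.33, 5.45 and 5.17 on control arrays. In the distal maxilla they were 5.20, 5.62 and 5.88 in mutants, against 4.89, 5.20 and 5.11 in controls. Mutant replicates 2 and 3 are the highest there. In the proximal mandible they were 5.41, 5.84 and 5.68 in mutants, against 5.52, 5.48 and 5.35 in controls. In the distal mandible they were 4.99, 5.01 and 4.76 in mutants, against 4.83, 5.09 and 4.93 in controls. Only the proximal maxilla of mutants stands clear of the rest, and there the log2 values differed by 2.00. Ccnb3 passed the brightness filter through those 3 arrays alone, and its other arrays, all controls among them, lay under the filter. It therefore had to differ to be tested, and its differences and calls here and further on are a description. It has 1 probe set, and its averaged difference was 0.66.

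**Figure D2:**
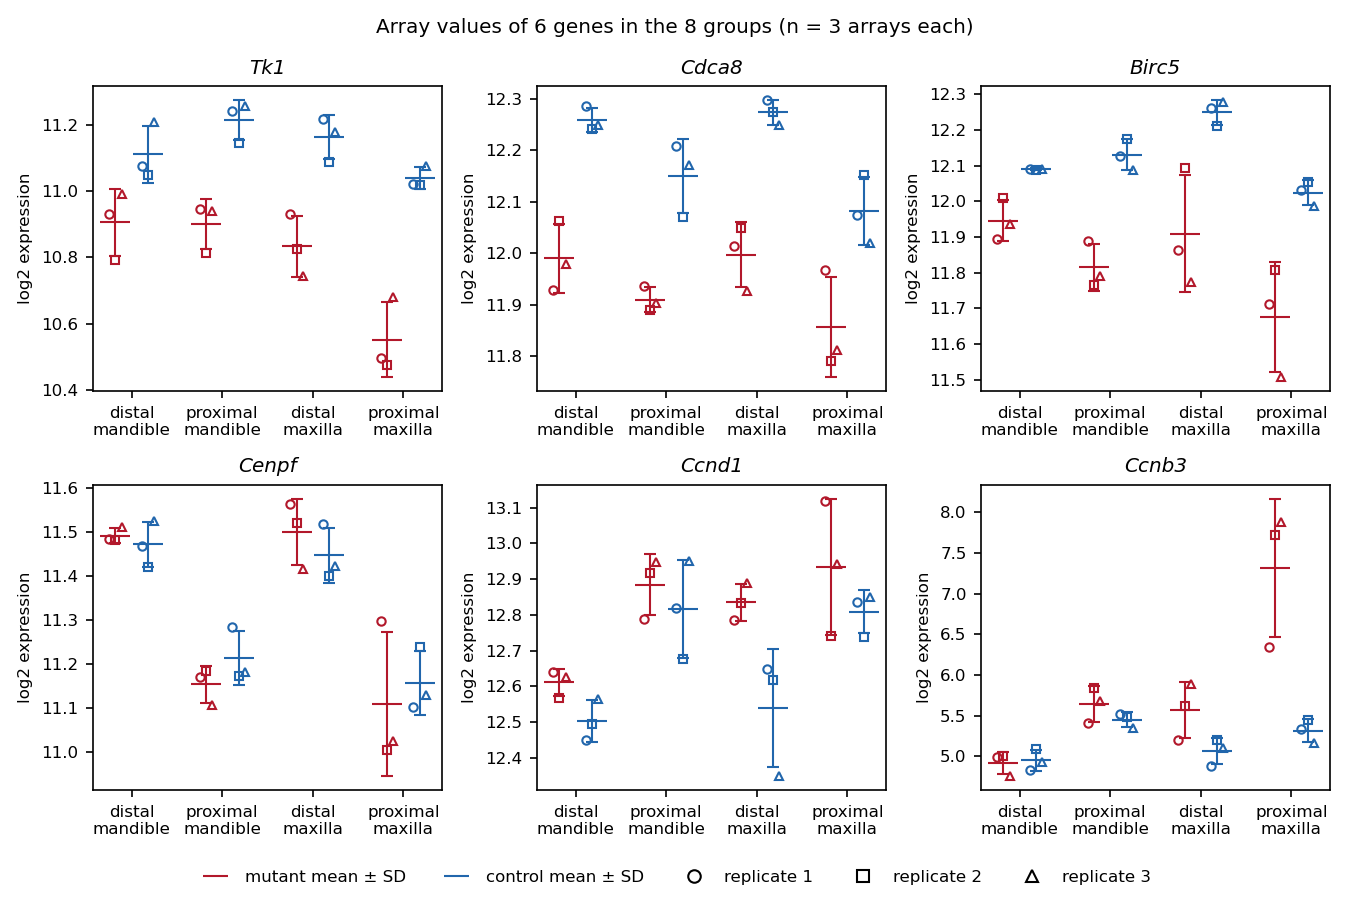
Log2 values of Tk1, Cdca8, Birc5, Cenpf, Ccnd1 and Ccnb3 on every array, by region, with mutant left of control and bars for mean ± SD (n = 3). Tk1 and Cdca8 are lower in mutants in each region, Cenpf separates the ends while its genotypes overlap, and Ccnb3 is high only in mutant proximal maxilla (6.34 to 7.88).

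The groups of S phase and G2/M genes can be followed array by array. For each array the median over the genes of their deviation from the gene's mean was taken, leaving out Ccnb3. For the 26 G2/M genes the group means were 0.06 in mutant and 0.13 in control distal mandible, -0.14 and 0.08 in proximal mandible, -0.01 and 0.19 in distal maxilla, and -0.22 and -0.03 in proximal maxilla. In each of the 4 regions all mutant arrays lay below all control arrays. For the 18 S phase genes the means were -0.05 in mutant and 0.05 in control distal mandible, -0.04 and 0.07 in proximal mandible, -0.05 and 0.11 in distal maxilla, and -0.13 and 0.03 in proximal maxilla. There the arrays overlapped in the proximal mandible and in no other region.

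**Figure D3:**
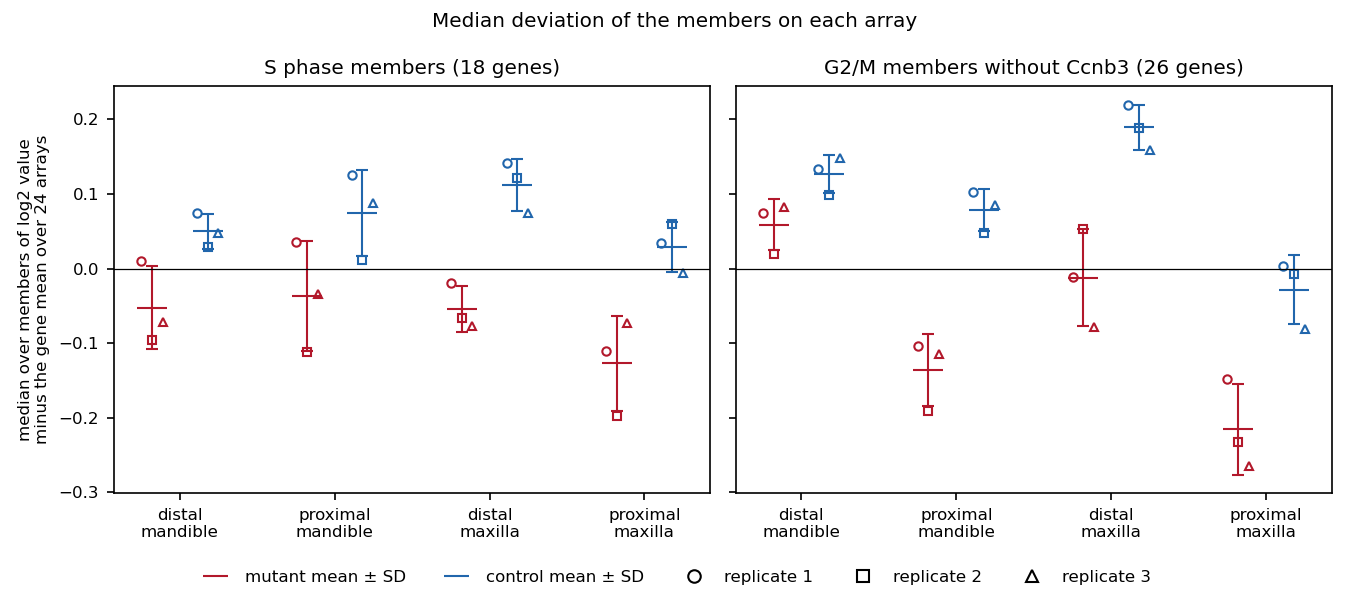
Median deviation of the S phase genes (left) and the G2/M genes (right) on each of the 24 arrays, in log2 units, with mutant left of control in each region and bars for mean ± SD (n = 3). The G2/M medians are lower in mutants in every region and lower at the proximal end, while the S phase medians vary less with the end.

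The fall was also examined in each region alone, where 3 mutant arrays are set against 3 control arrays. In the distal mandible 1 of 47 genes fell and none rose, against 0.534% of all genes called lower and 0.361% higher. That gene was Cdca8, with 11.93, 12.06 and 11.98 in mutants against 12.29, 12.24 and 12.25 in controls, a difference of -0.27 ± 0.0581 (adjusted p 0.0382 by limma, 0.0641 with the set as a random block). Mutant arrays lay below control arrays without overlap for 14 genes there, against 9% of all genes. The S phase gene with the largest difference, Ccne2, stood at -0.30 ± 0.154 and did not pass, and Mcm5 was the most positive at 0.06.

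In the proximal mandible 8 of 47 genes fell and none rose, against 2.51% of all genes called lower and 2.85% higher, and 25 of 47 did not overlap, against 14.6%. Aurkb led, with 10.29, 10.05 and 10.17 in mutants against 10.52, 10.49 and 10.56 in controls, a difference of -0.36 ± 0.0683 (adjusted p 0.00731 by limma). Birc5 (-0.32), Tk1 (-0.31), Ccnb2 (-0.29), Kif20a (-0.29), Cdca3 (-0.25), Cdca8 (-0.24) and Pcna (-0.20) were the other 7.

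In the distal maxilla 14 of 47 genes fell and none rose, against 4.06% of all genes called lower and 3.02% higher, and 27 did not overlap, against 11.8%. Kif20a had 10.43, 10.58 and 10.32 in mutants against 10.89, 10.85 and 10.74 in controls, a difference of -0.38 ± 0.0799 (adjusted p 0.00938 by limma). Ndc80 had 9.14, 9.66 and 9.27 in mutants against 9.89, 9.81 and 9.67 in controls, a difference of -0.43 ± 0.123 (adjusted p 0.0394). In both genes the 3 mutant arrays were the lower ones, and in Ndc80 mutant replicate 2 came close to the lowest control array. Ccnb2 (-0.36), Birc5 (-0.34), Tk1 (-0.33) and Gins2 (-0.32) followed.

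In the proximal maxilla 12 of 47 genes fell, against 2.38% of all genes called lower, and Ccnb3 alone rose, against 3.32% called higher. Mutant arrays lay below control arrays without overlap for 24 of 47, against 10.9% of all genes. Tk1 had 10.50, 10.48 and 10.68 in mutants against 11.02, 11.02 and 11.08 in controls. All 3 mutant arrays lay well below the controls, and the difference of -0.49 ± 0.0717 (adjusted p 0.00137 by limma) is a level 28.6% lower. Birc5 (-0.35), Prim1 (-0.33), Ccnb2 (-0.31), Kif20a (-0.29) and Kif23 (-0.27) followed.

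Whether the genotype effect differs between regions was tested directly. The difference between jaws and the difference between ends were called for 0 of 47 genes each by limma, as for 0% of all genes, with 2 and 1 of the 47 at an unadjusted p under 0.05. For Ccnb3 the genotype effect was lower in the mandible than in the maxilla by 1.17 (log2 difference -1.17), and for Tk1 the distal minus proximal difference of the effect was 0.13. Unequal counts of called genes between the regions are therefore not shown to be different effects. The region counts moved widely when 1 set was left out. Without control set 1 or control set 3 no gene was called in distal mandible, proximal mandible or distal maxilla and 2 were called in proximal maxilla. Without control set 2 the counts in the same order of regions were 0, 4, 2 and 2, and without mutant set 2 they were 10, 14, 23 and 18. Shares over all genes without these sets are not given here. Whether the counts moved for the 47 genes only or over the whole array is therefore not shown.

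RNA quality moves with the mutant sets, so the genotype effect was also read set by set. Mutant sets 1 and 3 have the higher Gapdh 3′ excess. Without them each mutant group holds 1 array, so only sizes are given. In mutant set 2 the median log2 difference from controls was -0.17 over the 47 genes, with 41 of them below 0, against -0.03 over all genes tested. In mutant sets 1 and 3 it was -0.10 and -0.16, against 0.03 and 0.05 over all genes tested. Tk1 differed from controls by -0.30, -0.40 and -0.29 in mutant sets 1, 2 and 3, Cdca8 by -0.23, -0.24 and -0.29, and Cdc6 by -0.19, -0.24 and -0.29. These 3 were low in each set.

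Other genes divided by set. Aurka, the Aurora A kinase of the spindle poles, had 10.50, 9.82 and 10.44 on the 3 mutant arrays of the distal mandible, and in every region its set 2 array was the lowest of the mutants. Its differences from controls by set were 0.02, -0.62 and -0.13, and its average of -0.24 ± 0.0948 did not pass (adjusted p 0.0542 by limma). Bub1b, a checkpoint kinase relative, behaved alike, with 0.02, -0.54 and -0.09 (average adjusted p 0.0783). Cdk1 (-0.04, -0.38 and -0.10) and Plk1 (-0.00, -0.40 and -0.09) were low mainly in set 2, as were E2f1 and Tyms.

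The opposite division was seen in Ccne2, with -0.31, 0.03 and -0.33 by set, in Ndc80, with -0.49, -0.16 and -0.35, and in Prim1, with -0.29, -0.12 and -0.38. Without mutant sets 1 and 3 Ccne2 stood at 0.03 and Ndc80 at -0.16. Probe sets of the list that were not used here divided more. One of Kif11 stood at -1.20, 0.06 and -1.23 by set, one of Rrm1 at -1.15, -0.12 and -1.26, and one of Cenpf at -0.45, 0.74 and -0.59. Set 2 lay more than 0.2 below the mean of sets 1 and 3 for 8 of 47 genes (17.0%) and more than 0.2 above it for 5 (10.6%), against 28.4% and 14.6% of all genes. The part of RNA quality in these differences was not tested.

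**Figure D4:**
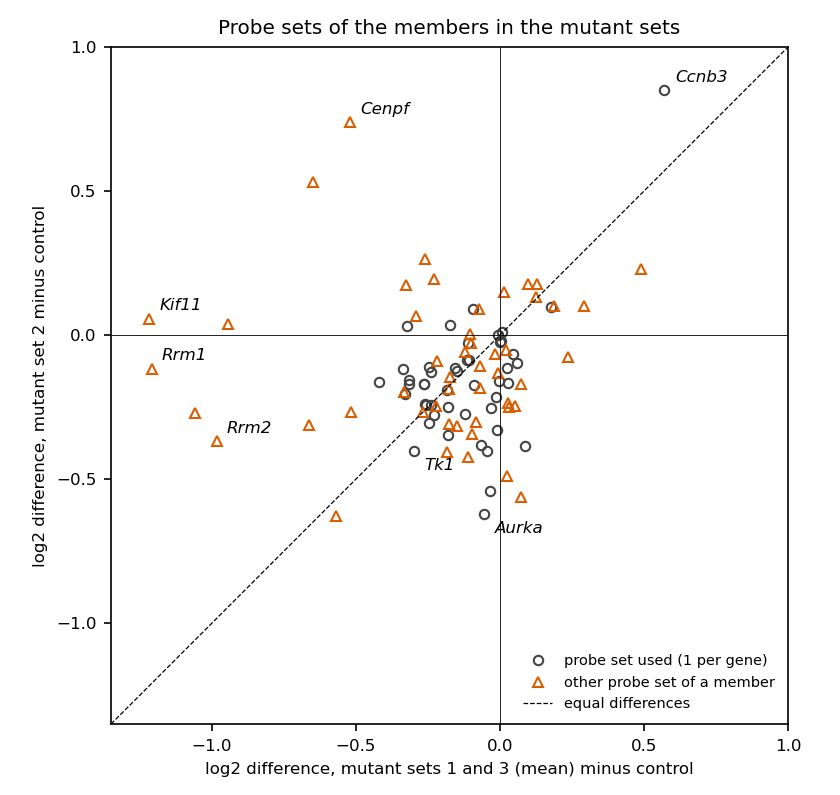
Log2 difference from control of each probe set of the listed genes in mutant set 2 (vertical axis) against the mean of mutant sets 1 and 3 (horizontal axis). The probe sets used (circles) cluster near the line of equal differences below 0, apart from Aurka and a few others. The labelled unused probe sets (triangles) of Rrm1 and Rrm2 lie further below 0 in sets 1 and 3 than in set 2. Those of Kif11 and Cenpf lie below 0 in sets 1 and 3 and above 0 in set 2.

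Of the 29 genes called on average, 16 have 19 further bright probe sets, and 15 of these 19 went the same way. The 4 that did not are those of Mcm4, Mcm6, Bub1 and Ccnd1 given above. Sizes varied among the 15, with -0.84 for Rrm1 but -0.10 for Aurkb, -0.08 for Prim1 and -0.02 for Top2a. Markers of other cells were read on the same average, where 15.5% of all genes were called lower and 18.3% higher. Of 10 macrophage markers 5 fell and 1 rose, with a median log2 difference of -0.17 (level 8.81 to 9.58 in mutants, 9.10 to 9.85 in controls), and of 6 red blood cell markers 3 fell, with a median of -0.22 (9.62 to 10.34 in mutants, 10.00 to 10.57 in controls), where a level is the mean log2 value of the list on an array. Of 9 endothelial markers 2 rose and 4 fell (9.56 to 9.99 in mutants, 9.60 to 9.99 in controls). Among 7 jaw mesenchyme markers 2 rose (11.84 to 12.58 in mutants, 11.89 to 12.57 in controls), 1 of 8 epithelial markers rose (10.28 to 11.73 in mutants, 9.84 to 11.49 in controls), and no muscle, cartilage or neuronal marker passed. All 9 cartilage markers were nevertheless above 0, with a median log2 difference of 0.44. Levels were 9.59 to 12.53 in mutants and 8.12 to 12.20 in controls for muscle, 7.29 to 11.83 and 7.22 to 11.30 for cartilage, and 8.57 to 11.05 and 8.50 to 10.79 for neurons. The part of these cells in the fall of the cell cycle genes was not tested.

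Further genes of the same processes, outside the 48, were listed by known function. These lists were made with earlier results of these data known, so they are not independent of the values. Of 29 other replication genes 20 fell and 1 rose, with a median log2 difference of -0.22. They included Gins1 (-0.36 ± 0.0394) and Gins4 (-0.34), partners of Gins2, Pola2 (-0.31), a subunit of polymerase alpha with primase, and Rfc3 (-0.30), a subunit of the loader of Pcna. Of 44 other mitosis genes 18 fell and 3 rose, with a median of -0.12. The largest were the centromere proteins Cenpm (-0.46 ± 0.0350) and Cenpk (-0.37), Spc24 (-0.35), a partner of Ndc80, and Ckap2 (-0.34), a spindle protein. All medians stand against 0.02 over all genes tested, and the counts against 15.5% of all genes called lower and 18.3% higher.

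Regulators of the G1 to S transition moved less evenly, with 8 of 26 lower and 3 higher, against 15.5% and 18.3% of all genes. Cdk2 (-0.20), the partner of E cyclins, Myc (-0.20) and Rbl1 (-0.19), a pocket protein, were lower, and Rb1 (0.25), the retinoblastoma protein that restrains E2F, was higher. Of 14 inhibitors of the cycle and of growth 2 rose and 1 fell, which does not exceed the shares of all genes (18.3% higher and 15.5% lower). Ccng1, a p53 target, was higher by 0.32 ± 0.0425, Btg1 was higher by 0.10 and Cdkn2d, an inhibitor of Cdk4 and Cdk6, was lower by 0.24 (log2 difference -0.24). Cdkn1a, the p21 inhibitor, stood at 0.25 and did not pass (adjusted p 0.069 by limma).

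The second question is how these genes vary along each jaw. Averaged over both jaws and genotypes, a comparison added after the data were seen, 23 of 47 genes were higher at the distal end, 2 were lower and 22 did not pass, against 15.1% of all genes called higher and 15.4% lower. The phases differed in their counts. Of 27 G2/M genes 21 were higher distally and 1 lower, with a median log2 difference of 0.16, while of 18 S phase genes 2 were higher, with a median of 0.04. The median over all genes tested was 0.01. The counts over the 47 with the set as a block were 30 higher and 3 lower, against 23.4% of all genes called higher and 21.5% lower.

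Cenpf led this difference. Its log2 values were 11.40 to 11.56 (median 11.48) on the 12 distal arrays, against 11.00 to 11.30 (median 11.17) on the 12 proximal arrays. No distal array reached down to a proximal one, in either genotype. The log2 difference, distal minus proximal, was 0.32 ± 0.0350 (adjusted p 9.56e-07 by limma). Between genotypes it was not called (-0.01).

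Mki67 behaved like Cenpf. It had log2 values of 12.72 to 12.91 (median 12.82) on distal arrays, against 12.49 to 12.66 (median 12.58) on proximal arrays, again without overlap, and a difference of 0.24 ± 0.0286 (adjusted p 2.5e-06 by limma). Kif11, the motor that separates the spindle poles, was higher by 0.28 ± 0.0457, with 10.21 to 10.61 on distal arrays against 9.92 to 10.27 on proximal arrays. Nusap1 (0.25), Tpx2 (0.21), which activates Aurora A on the spindle, Kif20a (0.21) and Cdca3 (0.21) completed the largest rises. Within each jaw of each genotype distal arrays lay above proximal arrays without overlap for 6 of 47 genes, against 2.5% of all genes: Mki67, Cenpf, Kif11, Nusap1, Cdca3 and Ttk.

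The 2 S phase genes that passed were Rrm2 (0.11, adjusted p 0.0286 by limma) and Cdt1 (0.10, adjusted p 0.0496). Both are small, and another bright probe set of Rrm2 stood at -0.08. Ccnd1 was lower distally, with 12.35 to 12.89 (median 12.62) on distal arrays against 12.68 to 13.12 (median 12.84) on proximal arrays, a difference of -0.24 ± 0.0461 (adjusted p 0.000498). Ccnb3 differed by -0.81 on average. It stood at -0.72 in the mutant mandible, -1.75 in the mutant maxilla, -0.50 in the control mandible and -0.25 in the control maxilla, mostly among values under the brightness filter. Of 24 further bright probe sets of the genes called, 23 went the same way.

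**Figure D5:**
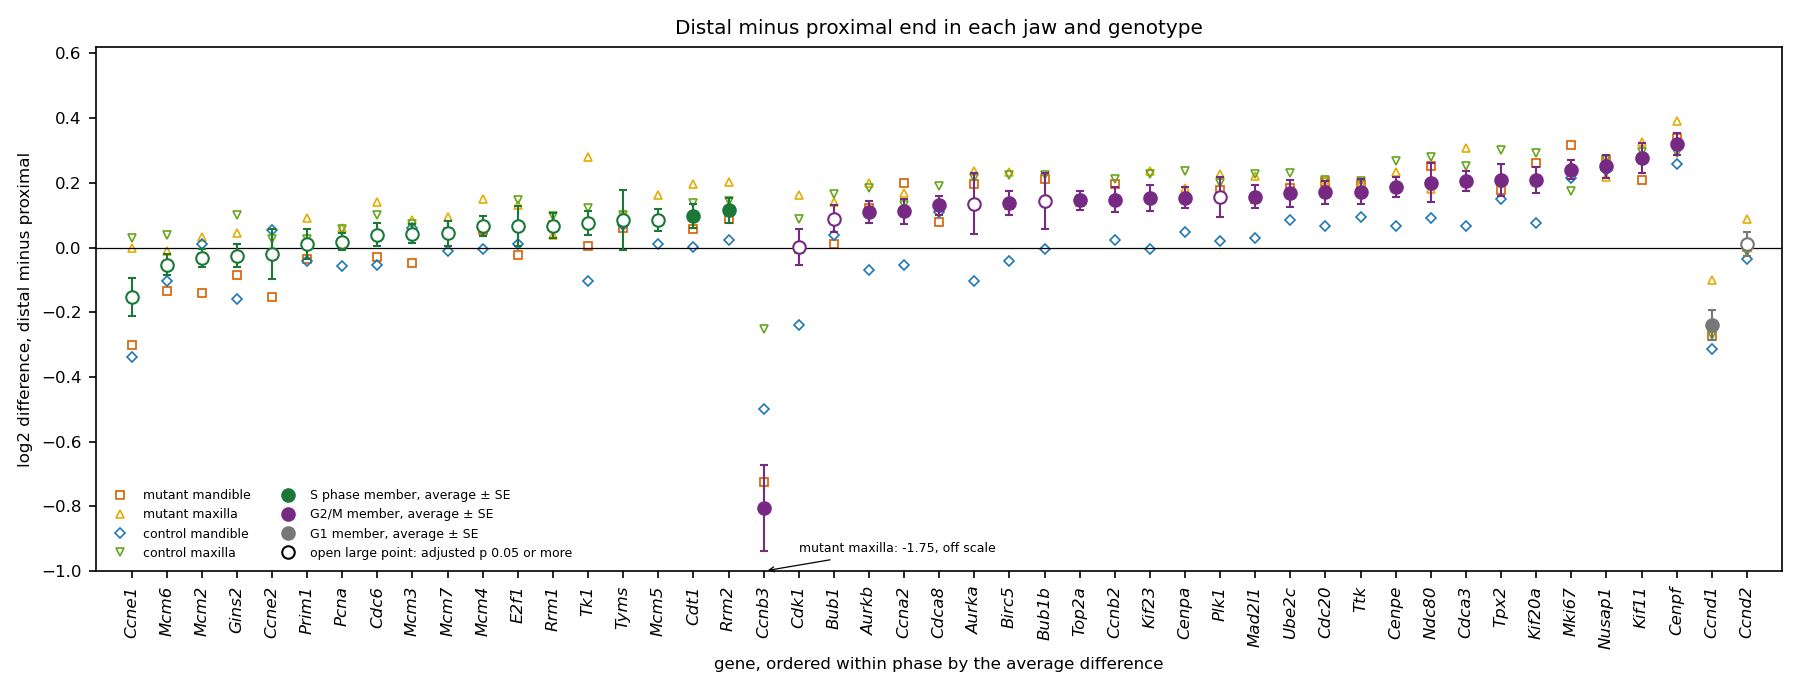
Log2 difference, distal minus proximal, of each gene in both jaws of both genotypes (small open symbols) and averaged (large points with SE; filled where the adjusted p was under 0.05). The G2/M points lie mostly above 0.1, the S phase points scatter around 0, Ccnd1 is at -0.24 and the Ccnb3 value of -1.75 in the mutant maxilla is beyond the scale.

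In the mutant mandible 5 of 47 genes were higher distally and none lower, against 7.57% of all genes called higher and 8.33% lower. The share called higher was thus near that of all genes here too. The 5 genes were Cenpf (0.34 ± 0.0701), Mki67 (0.32 ± 0.0573), Nusap1 (0.27), Kif20a (0.26) and Cdca3 (0.20), all of the G2/M group. Of the S phase genes, Ccne1, an E-type cyclin, was the most negative at -0.30 and Rrm2 the most positive at 0.09, and neither passed. A block on the set gave 17 higher and 3 lower, against 14.6% and 13.9% of all genes.

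In the mutant maxilla 6 of 47 genes were higher distally and 1 lower, against 2.48% and 2.66% of all genes. Cenpf (0.39 ± 0.0701), Kif11 (0.33), Cdca3 (0.31 ± 0.0617), Tk1 (0.28 ± 0.0717), Mki67 (0.26) and Cenpe (0.23) were the higher ones, and Ccnb3 (-1.75) the lower. Cdca3 had 11.59, 11.87 and 11.63 on distal arrays against 11.36, 11.43 and 11.38 on proximal arrays, without overlap. A block on the set gave 17 higher and 1 lower, against 5.27% and 5.85% of all genes.

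In the control mandible 3 of 47 genes were higher distally and 1 lower, against 6.24% and 7.08% of all genes, so the share here was near that of all genes. Mki67 had 12.75, 12.85 and 12.81 on distal arrays against 12.63, 12.61 and 12.52 on proximal arrays, a difference of 0.21 ± 0.0573 (adjusted p 0.016 by limma). Cenpf (0.26) and Nusap1 (0.24) were the other higher genes. Ccnd1 was the lower one, with 12.45, 12.49 and 12.56 distally against 12.82, 12.68 and 12.95 proximally, a difference of -0.31 ± 0.0922 (adjusted p 0.0286). No S phase gene passed. Ccne1 was the most negative at -0.34 (adjusted p 0.0614, 0.0136 with the set as a block) and Tyms the most positive at 0.07. Blocking on the set gave 5 higher and 3 lower, against 11.5% and 12.3% of all genes.

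In the control maxilla 6 of 47 genes were higher distally and none lower, against 3.37% of all genes called higher and 2.69% lower. Blocking on the set gave 20 higher, against 6.53%. Without overlap, 35 of 47 genes lay higher distally, 26 of the G2/M and 9 of the S phase group, against 18.6% of all genes. Cenpe had 11.04, 10.91 and 10.89 on distal arrays against 10.67, 10.76 and 10.60 on proximal arrays, a difference of 0.27 ± 0.0623 (adjusted p 0.0125 by limma). Kif20a (0.29), Cenpf (0.29), Nusap1 (0.27), Cdca3 (0.25) and Cenpa (0.24) were the other 5. Among S phase genes E2f1 was the most positive at 0.15 and Mcm2 the most negative at -0.03, and neither passed. Ccnd1 had 12.65, 12.62 and 12.35 distally against 12.84, 12.74 and 12.85 proximally, and its difference of -0.27 did not pass (adjusted p 0.102).

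When any 1 of the 3 control sets was left out, no listed gene was called between the ends of the control mandible. Between the ends of the control maxilla 0, 1 and 0 listed genes were called without control sets 1, 2 and 3. Shares over all genes without these sets are not given here. Whether the calls were lost for the listed genes only or over the whole array is therefore not shown. Within sets, the median distal minus proximal difference of the G2/M genes was 0.16, 0.20 and 0.16 in the mandible of mutant sets 1, 2 and 3, against 0.04, 0.04 and 0.08 in that of control sets 1, 2 and 3. In the maxilla it was 0.14, 0.30 and 0.16 in the mutant sets, against 0.22, 0.16 and 0.25 in the control sets. All 12 within-set medians of the G2/M genes lie above 0. For the S phase genes the medians in the maxilla also lay above 0 in each set. They were 0.07, 0.16 and 0.05 in mutant sets 1, 2 and 3, and 0.09, 0.06 and 0.06 in control sets 1, 2 and 3. In the mandible the S phase medians were -0.03, 0.01 and 0.00 in the mutant sets, and -0.04, -0.04 and 0.00 in the control sets.

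The ends also differ in tissue. On the same average, all 10 muscle markers were lower distally (median log2 difference -1.38), as were 8 of 9 cartilage markers (median -1.54) and 5 of 8 neuronal markers (median -0.80). In mandibles the muscle level was 9.59 to 9.66 on mutant distal against 11.54 to 11.68 on mutant proximal arrays, and 8.12 to 9.46 on control distal against 11.45 to 11.96 on control proximal arrays. Of 8 epithelial markers 6 were higher distally (median 1.06), of 7 jaw mesenchyme markers 3 were higher and 2 lower, and 5 of 10 macrophage markers were lower. Over all genes 15.1% were called higher distally and 15.4% lower. The part of these tissues in the difference of the cell cycle genes was not tested.

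Genes outside the 48 were read on the same average, where 15.1% of all genes were called higher distally and 15.4% lower. Of 44 other mitosis genes 27 were higher distally and none lower, with a median of 0.15. Cit (0.32), the citron kinase of cytokinesis, Aspm (0.30), a spindle pole protein, Ckap2l (0.28) and the motor Kif20b (0.27) led. Of 29 other replication genes 10 were higher and none lower, with a median of 0.04. Mcm10 (0.21), a replication fork protein, Pold1 (0.18), the catalytic subunit of polymerase delta, Fen1 (0.17), a flap nuclease, and Dbf4 (0.16), the activator of Cdc7, were the largest.

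Of 26 other G1 and S regulators 9 were higher distally and 3 lower, against 15.1% and 15.4% of all genes. Cdk6 (0.44), a partner of D cyclins, Rbl1 (0.32) and Mycn (0.18) were higher and Rb1 (-0.26) lower. Of 14 inhibitors 3 were higher and 3 lower, against the same shares of all genes. Cdkn2c, an inhibitor of Cdk4 and Cdk6, was higher by 0.58, and Cdkn1a (-0.43), Gadd45b (-0.24), a stress-response gene, and Cdkn1c (-0.21), the p57 inhibitor, were lower.

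The end difference itself differed between jaws for 1 of 47 genes, against 6.23% of all genes. That gene was Tk1, whose distal minus proximal difference was smaller in the mandible by 0.25 ± 0.0717 (log2 difference -0.25, adjusted p 0.0432 by limma). It stood at 0.00 in mutant mandible, 0.28 in mutant maxilla, -0.10 in control mandible and 0.12 in control maxilla. The comparison was added after the data were seen.

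The third question is how the 2 jaws compare at one end. At the distal ends of mutants 0 of 47 genes were called by limma, against 4.92% of all genes. An unadjusted p under 0.05 was found for 3 of 47, against 14.6% of all genes. Kif20a was the most positive at 0.16, and Ccnb3 (-0.65) and Ccnd1 (-0.22) the most negative, mandible minus maxilla. At the proximal ends of mutants Tk1 was higher in the mandible and Ccnb3 lower, against 2.73% of all genes called higher and 2.96% lower. Tk1 had 10.95, 10.81 and 10.94 in the mandible against 10.50, 10.48 and 10.68 in the maxilla, a difference of 0.35 ± 0.0717 (adjusted p 0.00581). All 3 mandible arrays lay above the maxilla arrays. Ccnb3 differed by -1.67. Blocking on the set gave 3 genes higher and 1 lower, against 5.7% and 6.73% of all genes.

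At the distal ends of controls 0 of 47 genes were called by limma, against 9.21% of all genes. An unadjusted p under 0.05 was found for 2 of 47, against 18.4% of all genes. Gins2 came closest, with 10.89, 10.83 and 10.91 in the mandible against 11.07, 11.06 and 11.16 in the maxilla. The arrays do not overlap, and the difference of -0.22 ± 0.0729 had an adjusted p of 0.0694 by limma and 0.0202 with the set as a block. Ccnd2 had 13.69, 13.67 and 13.74 in the mandible against 13.67, 13.69 and 13.58 in the maxilla, and overlapped. Birc5 stood at -0.16. Without overlap, 13 of 47 genes lay lower in the mandible, against 19.7% of all genes.

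At the proximal ends of controls 0 of 47 genes were called by limma, against 2.61% of all genes. An unadjusted p under 0.05 was found for 3 of 47, against 11.0% of all genes. Aurkb came closest, with 10.52, 10.49 and 10.56 in the mandible against 10.31, 10.40 and 10.16 in the maxilla, without overlap, and a difference of 0.23 ± 0.0683 (adjusted p 0.0865 by limma, 0.0533 with the set as a block). Mcm2 had 11.94, 12.03 and 12.15 in the mandible against 12.06, 12.13 and 12.06 in the maxilla, and overlapped. Without overlap, 18 of 47 genes lay higher in the mandible, against 12.7% of all genes. These comparisons share arrays with the end comparisons above and are not independent of them.

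Cdca3, Kif20a and Tk1 were called in 7 comparisons each, the most of the 47 genes. Kif20a, the midzone motor, had 10.72, 10.49 and 10.62 in mutant distal mandible, 10.40, 10.18 and 10.46 in mutant proximal mandible, and 10.32, 10.22 and 10.19 in mutant proximal maxilla. Its control values were 10.79, 10.64 and 10.72 in distal mandible, 10.64, 10.64 and 10.63 in proximal mandible, and 10.59, 10.51 and 10.49 in proximal maxilla. The mutant arrays lie below the control arrays in both proximal regions and overlap them in the distal mandible. Cdca3 had 11.63, 11.78 and 11.71 in mutant distal mandible against 11.80, 11.79 and 11.88 in control distal mandible. It had 11.48, 11.52 and 11.51 in mutant proximal mandible against 11.76, 11.72 and 11.79 in control proximal mandible, without overlap in either. It was called both for genotype and for end.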

How the data were processed

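Per the labels' protocols, 5 µg of RNeasy-purified total RNA gave the biotin-labelled cRNA of each array. The deposited values are log2 intensities from RMA, per the submitters' processing notes, whose version is not given there, nor which arrays were normalized together. Array medians were 7.00 to 7.08, and the number of arrays limits the precision.

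Of 45101 probe sets, 34958 name 1 gene symbol in the platform annotation, 932 name several and 9211 none. Each gene was read from its brightest probe set (by mean over the 24 arrays), and was tested if this exceeded the array's 40th percentile on 3 or more arrays. The model, 8 group means over all 24 arrays with 16 residual degrees of freedom, was fitted with limma 3.58.1 (lmFit and eBayes, R 4.3.3). A gene was called where its p, adjusted by Benjamini-Hochberg over 13850 genes, was under 0.05. Unless another is named, adjusted p-values come from this fit, errors are the SE of that difference, and folds or percents are computed from it.

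Only pairs of regions that share a jaw or an end were examined for a correlation within sets. Members of a set correlated there in their deviations from the group means (0.20 to 0.70 in mutants, 0.11 to 0.57 in controls). The exception was control proximal mandible with maxilla for replicate 2 (0.0040). Comparisons within a genotype were therefore repeated with the set as a block, a pairing that the values give and the labels do not; mutant and control arrays of 1 number were not paired. The set was also fitted as a random block (duplicateCorrelation, statmod 1.5.0) and as 1 value per set.

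The genes, phase groups and further lists were chosen with earlier results of these data known. Named in each comparison are the 6 largest rises and falls among the genes called, and the extremes of a phase group with no call. Array values are given for the genes with the smallest p and for the 3 called most often. Cell type markers only describe the tissue. On simulated data, the averaged genotype effect recovered 30 of 50 genes changed by 0.25 log2 units, 48 of 50 changed by 0.5 and 45 of 50 changed by -0.5, among 13850 genes. For 1 region, 7, 28 and 28 of 50 were recovered. The simulated arrays varied independently, without the correlation of 0.40 within sets, so these recoveries may not hold for the real arrays. Promoters were searched for letters on both strands.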

Additional observations from a re-analysis of the deposited data

Results flagged for a closer look

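Tk1, thymidine kinase, had a distal minus proximal difference that was not the same in both jaws. The interaction term gave a log2 difference of -0.251 ± 0.0717 (mandible minus maxilla; adjusted p 0.0432 by limma, 0.0115 with the set as a block). Tk1 was higher at the distal end of the mutant maxilla (0.28) and stood at 0.12 in the control maxilla, against 0.00 in the mutant mandible and -0.10 in the control mandible. The comparison was added after the data were seen. Tk1 was 1 gene of 47 called in it, while 6.23% of all genes were called in either direction. The call was lost without filtering dim genes (adjusted p 0.0587 by limma). It was also lost without mutant set 1 (0.172), without mutant set 2 (0.0836), and without control sets 1, 2 and 3 in turn (0.306, 0.121 and 0.136). Without mutant set 3 it passed (0.0242). The log2 difference lay between -0.317 and -0.208 when 1 set was left out.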

How the results depend on the processing

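Of 115 pairs of a gene and a comparison that were called, 3 changed direction under an alternative, all in the averaged genotype effect: Mcm4 (0.02) and Mcm6 (0.03) with the mean of all probe sets, and Ccne2 with the covariate (0.07) and without mutant sets 1 and 3 (0.03). Of 705 values for the 61 pairs followed, which are the largest rises and falls, 530 stayed on the same side of the threshold and 175 no longer passed, most of them when 1 set was left out. Counts are of the 47 genes called in either direction. Shares over all genes under these settings are not given beside them, so a count may have moved with the whole array. For the averaged genotype effect (29), the count was 0 with 1 value per set and 21 to 31 with 1 set left out. For the distal mandible (1) it was 0 without a filter and 0 with the mean of all probe sets. There the count was 2 with the Gapdh difference as a covariate and 0 when the set was a random block. With 1 set left out it was 0 to 10. For the proximal mandible (8) it was 18 with the covariate and 0 to 14 with 1 set left out. For the distal maxilla (14) it was 9 with the mean of all probe sets and 0 to 23 with 1 set left out. For the proximal maxilla (13) it was 8 without a filter, 23 with the covariate and 2 to 18 with 1 set left out. For the difference of the genotype effect between jaws (0) it was 0 to 1 with 1 set left out, and between ends (0) 0 to 1. Blocking on the replicate number (mutant paired with control of the same number) gave 31 genes for the averaged effect and moved no genotype count by more than 1.5 times.

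With the set as a replicate block, the set as a random block and the covariate, in that order, the counts were 20, 19 and 16 for the ends of the mutant mandible (5), 18, 19 and 16 for the mutant maxilla (7), 8, 8 and 8 for the control mandible (4), 20, 21 and 17 for the control maxilla (6), 4, 5 and 4 for the proximal ends of mutants between jaws (2), 1, 1 and 2 for the distal ends of controls (0), and 4, 4 and 5 for the jaw difference of the end effect (1). For the proximal ends of controls (0) both blocks gave 1. Averaging all probe sets, the ends of the mutant maxilla gave 4, those of the control maxilla 3 and the jaw difference of the end effect 2. The last gave 0 without a filter. With 1 set left out the ranges were 5 to 9 for the mutant mandible, 2 to 5 for the mutant maxilla, 0 to 0 for the control mandible, 0 to 1 for the control maxilla, 0 to 2 for the distal and 1 to 3 for the proximal ends of mutants between jaws, 0 to 2 for the jaw difference of the end effect, and 19 to 28 for the averaged end difference (25). Leaving a set out means fewer arrays; the cause of the other changes was not tested.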
